A study of Mus musculus with 8 samples.

Results

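The 47 genes described here encode the machinery of cell division, from the kinases that start mitosis to the proteins that pinch the daughter cells apart. They were chosen by symbol, and all 47 were found among the 22274 genes of the deposited table. They were measured in 8 RNA sequencing libraries of RFB cells, a line that the labels call a mouse kidney fibroblast. Of these, 4 libraries came from cells given TGF-β together with chaetocin and 4 from cells given TGF-β alone, so every library carries TGF-β, a cytokine that drives matrix production. Chaetocin, made by fungi, inhibits SUV39-type histone methyltransferases and also acts on redox enzymes. The sources used here give neither doses nor times, nor whether the line is a clone. A SUV39H1 knockdown is named in the series' design text but in no label of these samples. Nothing in the labels ties the libraries to separate cultures, so all p-values reflect the spread among these libraries, which may be technical.

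Mitosis is run by cyclin-dependent kinase 1 with its B-type cyclins, while Polo and Aurora kinases build the spindle and the spindle assembly checkpoint holds the cell until every kinetochore is attached. The anaphase-promoting complex then marks securin and cyclin B for destruction, separase opens cohesin, and a contractile ring divides the cell. Most of these genes are transcribed in waves. Their promoters are held off in resting cells by the DREAM complex and switched on in G2 by the MuvB core with MYBL2 and FOXM1, through the cell cycle genes homology region (CHR) and CCAAT boxes bound by NF-Y. In fibroblasts the levels of these transcripts are commonly used as a readout of proliferation.

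Because these promoters are known for shared elements, the RefSeq promoter windows of the members (GRCm38.p6, 250 bases before to 50 bases after a transcription start) are shown for 8 of them. Ncapd2, Ndc80 and Birc5 had the largest rises with chaetocin among the members with a window, Bub3, Ncaph and Racgap1 had the smallest, Ccnb2 holds 3 CCAAT boxes ahead of CHR letters near its start, and Top2a, like Ube2c, holds 6 CCAAT boxes, the most of any member window. Capitals mark the letters TTTGAA or TTTAAA on either strand, called CHR letters here, and CCAAT on either strand.
Ncapd2, chr6:125191537-125191836, minus strand: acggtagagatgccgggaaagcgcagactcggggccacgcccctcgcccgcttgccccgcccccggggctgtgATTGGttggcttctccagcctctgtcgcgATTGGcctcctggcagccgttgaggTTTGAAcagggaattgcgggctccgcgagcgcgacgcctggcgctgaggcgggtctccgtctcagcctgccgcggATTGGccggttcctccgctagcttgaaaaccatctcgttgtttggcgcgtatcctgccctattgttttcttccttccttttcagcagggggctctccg
Ndc80, chr17:71526808-71527107, minus strand: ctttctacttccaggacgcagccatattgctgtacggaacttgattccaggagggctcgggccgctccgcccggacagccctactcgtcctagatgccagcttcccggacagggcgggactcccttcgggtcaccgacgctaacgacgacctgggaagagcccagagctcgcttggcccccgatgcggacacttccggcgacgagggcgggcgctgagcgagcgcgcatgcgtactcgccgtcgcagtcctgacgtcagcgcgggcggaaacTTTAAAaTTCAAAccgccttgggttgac
Birc5, chr11:117848987-117849286, plus strand: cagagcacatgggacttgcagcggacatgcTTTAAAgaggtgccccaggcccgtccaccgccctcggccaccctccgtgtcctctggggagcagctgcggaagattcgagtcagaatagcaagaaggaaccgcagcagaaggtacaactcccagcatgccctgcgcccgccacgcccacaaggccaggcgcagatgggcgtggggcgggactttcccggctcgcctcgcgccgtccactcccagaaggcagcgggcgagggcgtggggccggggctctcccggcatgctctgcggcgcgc
Ccnb2, chr9:70421505-70421804, minus strand: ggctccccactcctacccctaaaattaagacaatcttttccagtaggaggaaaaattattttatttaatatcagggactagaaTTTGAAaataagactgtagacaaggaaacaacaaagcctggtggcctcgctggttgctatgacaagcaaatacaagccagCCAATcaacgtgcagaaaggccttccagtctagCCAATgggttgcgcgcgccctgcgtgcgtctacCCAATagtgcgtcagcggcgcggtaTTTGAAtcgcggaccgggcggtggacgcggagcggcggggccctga
Top2a, chr11:99024140-99024439, minus strand: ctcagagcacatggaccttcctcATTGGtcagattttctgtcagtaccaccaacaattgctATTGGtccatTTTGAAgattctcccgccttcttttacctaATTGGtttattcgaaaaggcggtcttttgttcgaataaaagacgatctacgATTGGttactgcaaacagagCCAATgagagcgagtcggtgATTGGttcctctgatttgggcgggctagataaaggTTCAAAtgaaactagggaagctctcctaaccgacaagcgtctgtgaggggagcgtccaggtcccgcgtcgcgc
Racgap1, chr15:99651607-99651906, minus strand: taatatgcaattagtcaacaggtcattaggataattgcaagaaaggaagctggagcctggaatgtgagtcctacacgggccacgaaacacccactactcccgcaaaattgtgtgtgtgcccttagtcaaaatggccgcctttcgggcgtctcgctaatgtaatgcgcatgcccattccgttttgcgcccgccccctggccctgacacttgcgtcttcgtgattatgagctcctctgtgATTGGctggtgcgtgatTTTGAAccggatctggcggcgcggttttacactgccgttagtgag
Ncaph, chr2:127133905-127134204, minus strand: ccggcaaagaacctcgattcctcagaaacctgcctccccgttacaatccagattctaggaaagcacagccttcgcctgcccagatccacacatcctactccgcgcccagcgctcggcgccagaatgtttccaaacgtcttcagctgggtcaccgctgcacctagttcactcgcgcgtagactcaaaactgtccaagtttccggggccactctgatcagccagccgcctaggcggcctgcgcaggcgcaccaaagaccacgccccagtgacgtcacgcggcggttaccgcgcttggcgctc
Bub3, chr7:131560120-131560419, plus strand: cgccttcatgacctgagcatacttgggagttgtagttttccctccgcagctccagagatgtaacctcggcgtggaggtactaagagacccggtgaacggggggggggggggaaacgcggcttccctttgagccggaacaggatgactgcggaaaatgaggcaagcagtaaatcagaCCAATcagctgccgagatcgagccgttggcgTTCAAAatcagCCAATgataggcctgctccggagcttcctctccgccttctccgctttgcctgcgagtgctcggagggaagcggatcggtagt

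RefSeq gave 41 windows for 38 of the 47 members. CHR letters stood in 32 of these 41 windows (78.0%), against 27.6% of all 32851 promoter windows. CCAAT stood in 33 windows (80.5%), against 37.4% of all windows. Both stood in 29 windows (70.7%), against 10.7% of all windows. Both strands were searched, so TTCAAA and ATTGG also count, and a CCAAT box can share a base with CHR letters. In the 150 bases just before the start, 17 of 41 windows (41.5%) held both, against 3.6% of all windows. The window of Ccnb2 has CCAAT at 87, 54 and 21 bases before the start and CHR letters 167 bases before and 5 bases after it. The windows of Ncaph, Mad2l1, Nuf2, Nusap1 and Pttg1 hold neither set of letters. A match is a string of letters and not a bound site, and its absence says only that these letters are not in this window.

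**Figure D1:**
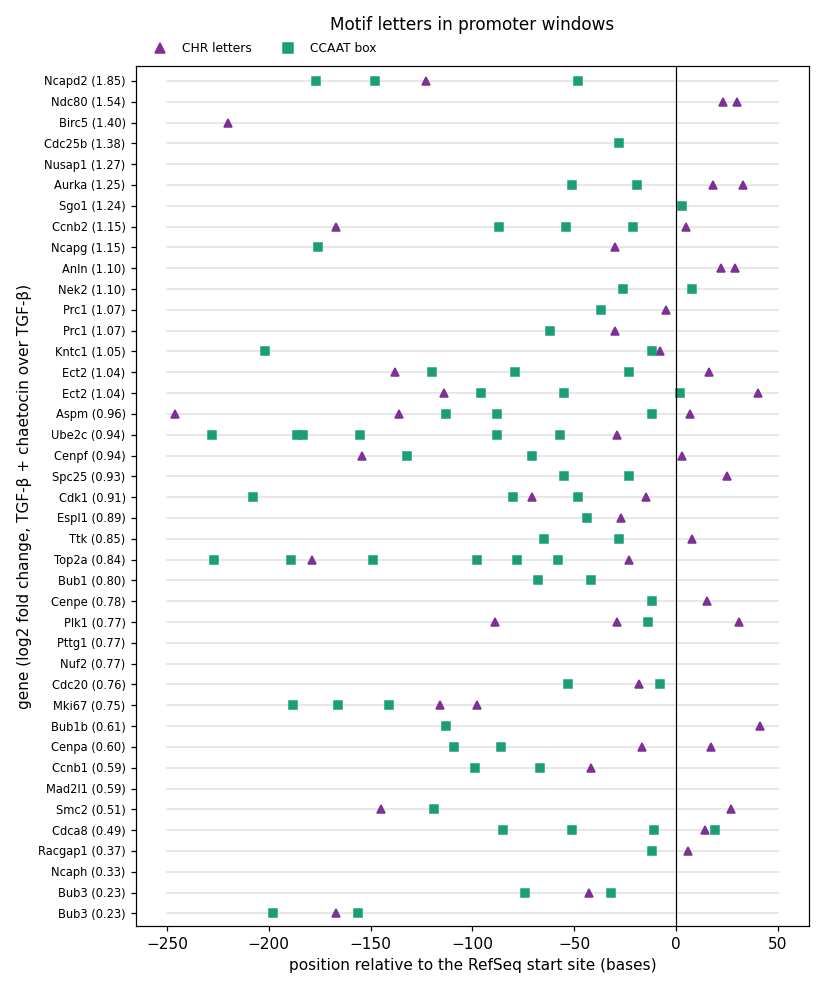
Position of CHR letters (triangles) and CCAAT boxes (squares) in the 41 promoter windows, relative to the RefSeq start site in bases. Genes run from the largest to the smallest log2 fold change. Windows with both motifs run from Ncapd2 at 1.85 to Bub3 at 0.23. Next below Ncapd2, the windows of Ndc80, Birc5, Cdc25b and Nusap1 do not hold both, and that of Aurka at 1.25 does.

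With chaetocin added to TGF-β, mitotic genes were higher in nearly every case. Levels are given as CPM, read counts divided by TMM-scaled library size, and changes as log2 fold changes of TGF-β+chaetocin over TGF-β from the quasi-likelihood test of edgeR, with Benjamini-Hochberg adjustment over all 14608 genes tested and an adjusted p under 0.05 as the threshold. All 47 members had enough counts to be tested, and 46 were higher with chaetocin, 0 were lower and 1, Spc24, was not called. Across all tested genes 42.0% were called higher and 38.8% lower. The median log2 fold change of the members was 0.85, with an interquartile range of 0.70 to 1.10, whereas all tested genes had a median of 0.02 and an interquartile range of -0.35 to 0.67. In 46 members the lowest library with chaetocin lay above the highest library without it, which held for 39.0% of all tested genes.

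A fold of at least 2 was reached by 17 of the 47 members, against 19.7% of all tested genes in the same direction. Tested against a fold of 1.5 with glmTreat, 34 members were higher, against 23.0% of all genes. Ncapd2 stood at the top with a fold of 3.60 and Bub3 at the bottom of the called members with a fold of 1.17. Summed over the 47 members, the libraries with TGF-β+chaetocin held 1206, 1170.2, 1169.6 and 1158 CPM, against 664.9, 664.3, 661.5 and 668.4 CPM with TGF-β. These sums do not overlap and each group varied little within itself. In bulk RNA a larger share of cells in mitosis and more of these transcripts per cell cannot be told apart. The authors' deposited table gave a positive log2 ratio and an FDR under 0.05 for 46 members, but the test behind it is not named there.

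**Figure D2:**
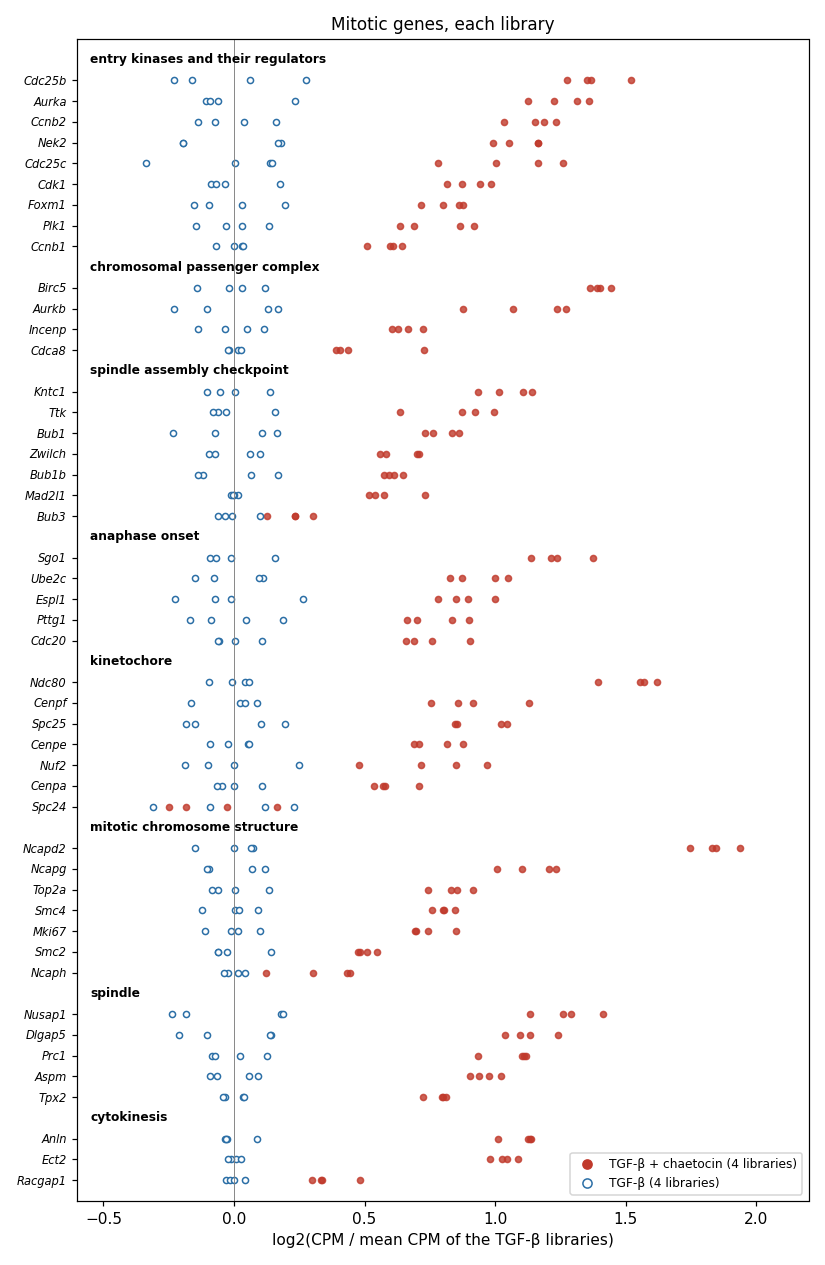
log2 of each library's CPM over the mean of the 4 TGF-β libraries, for the 47 members ordered by role; filled points are TGF-β+chaetocin libraries and open points TGF-β libraries. The filled points lie to the right of the open points in every row but that of Spc24, where they mix.

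**Figure D3:**
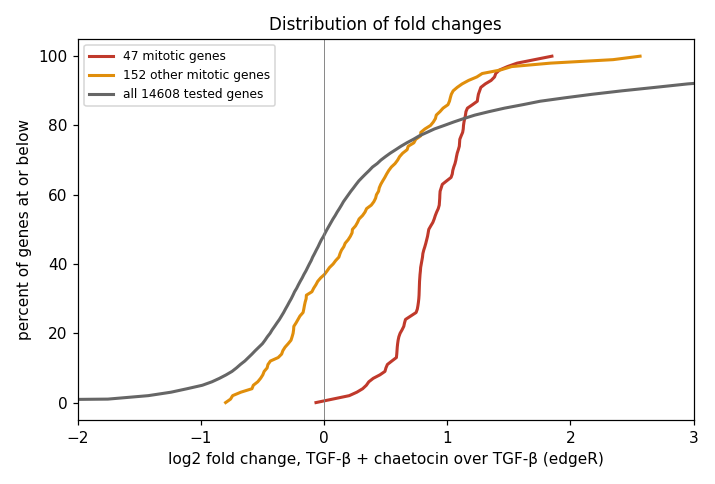
Percent of genes at or below each log2 fold change (TGF-β+chaetocin over TGF-β) for the 47 members, 152 other mitotic genes and all 14608 tested genes; the axis ends at -2 and 3. The curve of the members is the steepest and crosses 50% at 0.85, against 0.23 for the other mitotic genes and 0.02 for all genes.

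Library totals were 22591935, 15009595, 14421225 and 15084876 counts with TGF-β+chaetocin and 20135312 to 23664084 counts with TGF-β, and 3 counts correspond to 0.127 to 0.208 CPM. Total-count scaling in place of TMM shifts the median of all genes from 0.02 to 0.14 and that of the members from 0.85 to 0.96, and leaves the same 46 members called. Marker counts below stand against 42.0% higher and 38.8% lower over all tested genes. Of 11 epithelial markers, 6 were higher and 4 lower. The summed level of the epithelial markers was 9195 to 9634 CPM with TGF-β+chaetocin and 6269 to 6426 CPM with TGF-β. Krt8, called higher, averaged 3615 ± 46.6 CPM with TGF-β+chaetocin and 1582 ± 29.6 CPM with TGF-β (SD, n = 4 each). Cdh1, called lower by a small margin, averaged 617.6 ± 21.6 CPM with TGF-β+chaetocin and 650.5 ± 8.1 CPM with TGF-β. Cldn4, also called lower, averaged 810 ± 16.1 CPM with TGF-β+chaetocin and 1156 ± 9.93 CPM with TGF-β. Fibroblast markers summed to 17880 to 19320 CPM with TGF-β+chaetocin and 37790 to 39640 CPM with TGF-β, with 2 of 12 tested higher and 6 lower. Most of that sum is Fn1, at 16320 ± 466 CPM with TGF-β+chaetocin and 35960 ± 822 CPM with TGF-β (SD, n = 4 each). Vim averaged 442 ± 50.5 CPM with TGF-β+chaetocin and 1163 ± 30.2 CPM with TGF-β, and Acta2 1598 ± 86.9 CPM with TGF-β+chaetocin and 1248 ± 16.8 CPM with TGF-β. Col1a1 averaged 58.1 ± 9.17 CPM with TGF-β+chaetocin and 233 ± 10.6 CPM with TGF-β, whereas Lum, too low to test, had at most 7 counts in any library. Pdgfra averaged 3.78 CPM with TGF-β+chaetocin and 3.52 CPM with TGF-β, and Thy1 1.784 CPM with TGF-β+chaetocin and 1.265 CPM with TGF-β. Dcn, called higher, averaged 2.28 CPM with TGF-β+chaetocin and 0.13 CPM with TGF-β. Fibroblast markers were thus mixed, with Fn1, Vim and Acta2 abundant and Pdgfra, Thy1, Dcn and Lum scarce. Among the epithelial markers only Aqp1 was scarce, at 2.79 CPM with TGF-β+chaetocin and 4.34 CPM with TGF-β. The next lowest, Havcr1, averaged 114.5 CPM with TGF-β+chaetocin and 140.7 CPM with TGF-β. Most epithelial markers were therefore abundant in both groups, although the labels call the line a fibroblast. The cells are called RFB cells here. Macrophage and leukocyte markers summed to 221 to 260.1 CPM with TGF-β+chaetocin and 346.2 to 384.1 CPM with TGF-β, with 4 of 10 tested higher and 6 lower. The leukocyte gene Ptprc averaged 25.1 ± 2.93 CPM with TGF-β+chaetocin and 20.5 ± 0.643 CPM with TGF-β, and the macrophage gene Csf1r 32.4 ± 2.62 CPM with TGF-β+chaetocin and 50.1 ± 3.29 CPM with TGF-β, while the T cell gene Cd3e had at most 7 counts with TGF-β+chaetocin and 0 with TGF-β. Endothelial markers summed to 86.8 to 93.6 CPM with TGF-β+chaetocin and 54.6 to 61.7 CPM with TGF-β, with 4 of 7 higher and 2 lower. The part of these shifts in the rise of mitotic genes was not tested.

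Every member of the entry machinery was higher. Cdk1, the kinase that drives entry into mitosis, had 25.5, 26.2, 24.3 and 23.3 CPM in the TGF-β+chaetocin libraries, against 12.4, 12.6, 12.9 and 15 CPM in the TGF-β libraries (log2 fold change 0.91 ± 0.068 (SE), adjusted p = 1.6e-12). The lowest value with chaetocin is well clear of the highest without it. Its partner cyclin B1, encoded by Ccnb1, had 16.6, 17.1, 16.7 and 15.6 CPM with TGF-β+chaetocin, against 11.2, 11.2, 11 and 10.5 CPM with TGF-β (log2 fold change 0.59 ± 0.071 (SE), adjusted p = 2.1e-08). The second B-type cyclin gene, Ccnb2, stood lower in level and moved further, with 9.27, 9.59, 9.07 and 8.35 CPM with TGF-β+chaetocin, against 4.55, 4.18, 3.70 and 3.87 CPM with TGF-β (log2 fold change 1.15 ± 0.11 (SE), adjusted p = 3.6e-10). All 4 libraries with chaetocin exceeded all 4 without it for both cyclins.

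CDC25 phosphatases remove the inhibitory phosphates from CDK1. Cdc25b had 12.7, 14.3, 12.1 and 12.9 CPM in the TGF-β+chaetocin libraries, against 4.46, 5.21, 4.25 and 6.03 CPM in the TGF-β libraries (log2 fold change 1.38 ± 0.11 (SE), adjusted p = 3.8e-12). Cdc25c was scarce, with 36 to 75 counts per library with TGF-β+chaetocin and 24 to 32 with TGF-β, and rose by 1.08 on the log2 scale (edgeR adjusted p = 1.5e-05). Aurka, the Aurora kinase of centrosome maturation and spindle assembly, had 16.4, 19.3, 17.6 and 18.7 CPM with TGF-β+chaetocin, against 6.98, 7.06, 8.84 and 7.22 CPM with TGF-β (log2 fold change 1.25 ± 0.087 (SE), adjusted p = 3.3e-13). One TGF-β library stood above the other 3 for Aurka, and it was still below every library with chaetocin. Plk1, the Polo kinase that acts from centrosomes to cytokinesis, averaged 15.1 ± 1.42 CPM with TGF-β+chaetocin and 8.79 ± 0.708 CPM with TGF-β (SD, n = 4 each). Nek2, a kinase of centrosome separation, averaged 11.5 ± 0.688 CPM with TGF-β+chaetocin and 5.37 ± 0.788 CPM with TGF-β. Foxm1, the transcription factor that activates many genes of this set in G2, had 28.2, 28.5, 25.5 and 27 CPM with TGF-β+chaetocin, against 14.5, 17.8, 15.8 and 13.9 CPM with TGF-β (log2 fold change 0.82 ± 0.068 (SE), adjusted p = 1.3e-11). Its rise was close to the median of the 47 members.

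The chromosomal passenger complex corrects faulty attachments and later guides the cleavage furrow. Its targeting subunit survivin, encoded by Birc5, moved furthest of the 4 members, with 11.8, 11.1, 11.3 and 11.4 CPM in the TGF-β+chaetocin libraries, against 4.41, 3.92, 4.69 and 4.27 CPM in the TGF-β libraries (log2 fold change 1.40 ± 0.10 (SE), adjusted p = 7.1e-13). The kinase of the complex, Aurkb, averaged 8.10 ± 0.985 CPM with TGF-β+chaetocin and 3.72 ± 0.486 CPM with TGF-β (SD, n = 4 each), a log2 fold change of 1.13. Incenp, its scaffold, had a log2 fold change of 0.66 and Cdca8, which encodes borealin, one of 0.49. For Cdca8 the values were 10.7, 10.6, 13.4 and 11 CPM with TGF-β+chaetocin, against 8.18, 8.25, 8.0 and 7.96 CPM with TGF-β, and the third library with chaetocin was the high one. The exons of Cdca8 share 232 bases with 9930104L06Rik on the opposite strand, a transcript with 179.2 counts on average with TGF-β+chaetocin and 256.5 with TGF-β, so part of its counts is uncertain. Cdc25b, Cdc25c, Plk1, Nek2, Zwilch, Cdc20, Ube2c, Ncapg, Nusap1 and Prc1 also overlap exons on the opposite strand, and Foxm1 and Top2a on the same strand. Ncapg shares the most, 944 bases with Lcorl. Lcorl averaged 331.5 counts with TGF-β+chaetocin and 568 with TGF-β, against 232.5 and 126.25 for Ncapg. Cdc20 shares 53 bases with Elovl1, which averaged 1098 counts with TGF-β+chaetocin and 1540 with TGF-β. The counts of Ncapg and Cdc20 are therefore uncertain in part as well.

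Genes of the spindle assembly checkpoint were higher in 7 of 7 cases, with a median log2 fold change of 0.64. Kntc1, a subunit of the RZZ complex that recruits dynein and checkpoint proteins to kinetochores, had 15.3, 14.5, 16.7 and 16.3 CPM in the TGF-β+chaetocin libraries, against 7.07, 7.32, 7.61 and 8.36 CPM in the TGF-β libraries (log2 fold change 1.05 ± 0.084 (SE), adjusted p = 7.4e-12). Its partner Zwilch had a log2 fold change of 0.65. The checkpoint kinases Ttk and Bub1 had log2 fold changes of 0.85 ± 0.14 and 0.80 ± 0.090 (SE). Bub1b and Mad2l1, which encode parts of the complex that inhibits CDC20, had 0.61 ± 0.076 and 0.59 ± 0.069 (SE). Bub3, a WD-repeat adaptor of BUB1 and BUBR1 that is also found outside mitosis, had 79, 83, 73.4 and 79.1 CPM with TGF-β+chaetocin, against 64.6, 66.9, 72.1 and 65.7 CPM with TGF-β (log2 fold change 0.23 ± 0.040 (SE), adjusted p = 1.1e-05). The lowest library with chaetocin exceeded the highest without it by little more than 1 CPM for Bub3, the narrowest gap among the called members relative to level.

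Regulators of anaphase onset were higher in 5 of 5 cases, with log2 fold changes of 0.76 to 1.24. Sgo1, the shugoshin that protects centromeric cohesin, had 8.93, 9.84, 8.34 and 8.80 CPM in the TGF-β+chaetocin libraries, against 4.23, 3.76, 3.56 and 3.61 CPM in the TGF-β libraries (log2 fold change 1.24 ± 0.12 (SE), adjusted p = 1.2e-10). Cdc20, the activator of the anaphase-promoting complex, averaged 15.8 ± 1.22 CPM with TGF-β+chaetocin and 9.34 ± 0.522 CPM with TGF-β (SD, n = 4 each). Ube2c, the ubiquitin-conjugating enzyme of the complex, averaged 16.8 ± 1.22 CPM with TGF-β+chaetocin and 8.77 ± 0.785 CPM with TGF-β. Securin (Pttg1) and the protease it restrains, separase (Espl1), had log2 fold changes of 0.77 ± 0.090 and 0.89 ± 0.12 (SE).

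At the kinetochore, 6 of 7 genes rose. Ndc80, the microtubule-binding subunit that names the NDC80 complex, had 14, 13.6, 13.4 and 12 CPM in the TGF-β+chaetocin libraries, against 4.69, 4.74, 4.54 and 4.27 CPM in the TGF-β libraries (log2 fold change 1.54 ± 0.10 (SE), adjusted p = 3.8e-14). It is the second largest rise of the 47. Of the other 3 subunits of this complex, Nuf2 had a log2 fold change of 0.77 ± 0.14 and Spc25 one of 0.93 ± 0.10 (SE). Spc24 had 1.15, 1.34, 1.20 and 1.53 CPM with TGF-β+chaetocin, against 1.10, 1.60, 1.48 and 1.28 CPM with TGF-β (log2 fold change -0.07 ± 0.23 (SE), adjusted p = 0.79). Its groups overlap, and it had 18 to 27 counts per library with TGF-β+chaetocin and 24 to 31 with TGF-β. The centromere proteins Cenpe, a plus-end motor, Cenpf, a large coiled-coil protein, and Cenpa, the centromeric histone H3 variant, had log2 fold changes of 0.78 ± 0.057, 0.94 ± 0.080 and 0.60 ± 0.11.

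Mitotic chromosome structure held both the largest rise and one of the smallest. Ncapd2, a HEAT-repeat subunit of condensin I, had 66, 57.8, 61.4 and 61.9 CPM in the TGF-β+chaetocin libraries, against 15.5, 18.1, 18 and 17.2 CPM in the TGF-β libraries (log2 fold change 1.85 ± 0.054 (SE), adjusted p = 1.1e-21). Its 4 values with chaetocin are all more than 3 times the highest without it. Ncapd2 lies on chromosome 6, positions 125168007 to 125191701, minus strand (GRCm38, GENCODE M21), and 472 bases of its exons are shared with Scarna10 and Gm28967 on the same strand, which were not analysed here, so reads of these could be in its count. Ncaph, the kleisin that closes the same condensin ring, had 16.3, 14.4, 17.9 and 17.8 CPM with TGF-β+chaetocin, against 13.6, 13.3, 13 and 12.8 CPM with TGF-β (log2 fold change 0.33 ± 0.074 (SE), adjusted p = 0.00025). Ncapg, the other HEAT-repeat subunit, was intermediate, with 14.1, 13.9, 12.1 and 12.9 CPM with TGF-β+chaetocin, against 6.29, 5.62, 6.52 and 5.59 CPM with TGF-β (log2 fold change 1.15 ± 0.094 (SE), adjusted p = 1e-11). The ATPase core subunits Smc2 and Smc4 averaged 48.2 ± 1.13 and 60.4 ± 1.49 CPM with TGF-β+chaetocin, against 34 ± 2.36 and 34.7 ± 2.10 CPM with TGF-β (SD, n = 4 each). The subunits of this 1 complex therefore ranged from 0.33 to 1.85 on the log2 scale. Top2a, the decatenating topoisomerase, had 83.6, 78.8, 80.2 and 74.3 CPM with TGF-β+chaetocin, against 44.5, 42.5, 41.8 and 48.6 CPM with TGF-β (log2 fold change 0.84 ± 0.045 (SE), adjusted p = 1.3e-15). Mki67, which encodes the proliferation marker Ki-67 that coats mitotic chromosomes, had 109, 97.5, 98 and 101 CPM with TGF-β+chaetocin, against 64.6, 56, 59.9 and 61.1 CPM with TGF-β (log2 fold change 0.75 ± 0.042 (SE), adjusted p = 2.2e-15).

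All 5 spindle and all 3 cytokinesis genes were higher, with median log2 fold changes of 1.07 and 1.04. Tpx2, which activates Aurora A and nucleates microtubules, had 69.4, 69.7, 66 and 70.2 CPM in the TGF-β+chaetocin libraries, against 39, 41, 38.8 and 41 CPM in the TGF-β libraries (log2 fold change 0.78 ± 0.040 (SE), adjusted p = 2.6e-16). Prc1, which bundles antiparallel microtubules of the midzone, averaged 38.6 ± 2.26 CPM with TGF-β+chaetocin and 18.4 ± 1.27 CPM with TGF-β (SD, n = 4 each; log2 fold change 1.07 ± 0.058 (SE), adjusted p = 1.4e-15 by edgeR). Nusap1, Dlgap5 and Aspm, which bind spindle microtubules or their poles, had log2 fold changes of 1.27, 1.13 and 0.96. Anln, the anillin scaffold of the contractile ring, had 65.2, 60.2, 65.5 and 65.8 CPM with TGF-β+chaetocin, against 29.4, 29.2, 29.2 and 31.8 CPM with TGF-β (log2 fold change 1.10 ± 0.045 (SE), adjusted p = 1.9e-18). The groups are far apart for both genes. Ect2, the exchange factor that activates RhoA at the furrow, had 32.6, 31.2, 31.7 and 30.2 CPM with TGF-β+chaetocin, against 15.4, 15.2, 15.1 and 15.6 CPM with TGF-β (log2 fold change 1.04 ± 0.055 (SE), adjusted p = 8.5e-16). Racgap1, which binds ECT2 and brings it to the midzone, had 20.9, 18.9, 18.9 and 18.4 CPM with TGF-β+chaetocin, against 14.7, 14.8, 15.4 and 15 CPM with TGF-β (log2 fold change 0.37 ± 0.065 (SE), adjusted p = 8.8e-06). Its groups are also separate, but by a smaller margin than those of Ect2.

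Levels of different genes were compared per length, as FPKM. Bub3 was the most abundant member, at 36.9 ± 1.69 FPKM with TGF-β+chaetocin and 29.1 ± 1.43 FPKM with TGF-β (SD, n = 4 each). In the TGF-β+chaetocin libraries Pttg1, Cdk1, Tpx2 and Ncapd2 followed, at 20.3, 19.7, 19.4 and 18.5 FPKM. Their SDs ran from 0.684 to 2.03, so the order among these genes is not firm. Ncapd2 ranked 5 of 47 there and 17 of 47 in the TGF-β libraries. Birc5 ranked 11 with TGF-β+chaetocin and 23 with TGF-β, and Aurka 14 with TGF-β+chaetocin and 24 with TGF-β. At the low end stood Spc24, at 1.34 ± 0.263 FPKM with TGF-β+chaetocin and 1.37 ± 0.385 FPKM with TGF-β, with Espl1, Cdc25c and Aspm just above it in the TGF-β+chaetocin libraries.

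**Figure D4:**
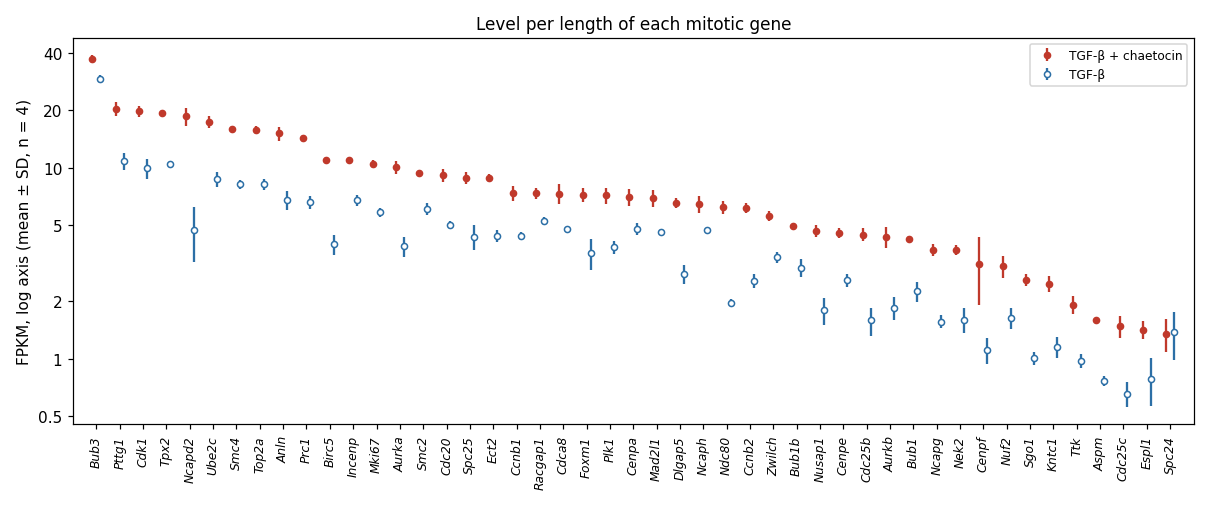
FPKM of each member on a log axis, mean ± SD of 4 libraries, TGF-β+chaetocin (filled) and TGF-β (open), ordered by the level with chaetocin. The filled point is above the open one for all genes but Spc24, and the gap is widest at Ncapd2.

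Partners and paralogs were compared within each library as log2 ratios of their counts, which do not depend on how libraries are scaled. Of 16 such pairs, 9 had groups that did not overlap, each at p = 0.0286 in an exact two-sided permutation test, the smallest that 4 against 4 libraries can give. Separate groups were common in these libraries, since the CPM of 10916 of the 14608 tested genes did not overlap, in either direction. Ratios of other pairs of genes were not computed, so 9 of 16 has no background to be read against. After Benjamini-Hochberg adjustment over the 16 pairs these became 0.0508, so 0 of 16 passed 0.05 and 9 of 16 had an unadjusted p under it. With so few libraries no pair could pass on its own, however far apart its groups. Birc5 over Cdca8, of the passenger complex, had a log2 ratio of 0.00 ± 0.17 with TGF-β+chaetocin and -0.91 ± 0.12 with TGF-β (SD, n = 4 each, exact permutation test adjusted p = 0.0508). For Ncapg over Ncaph the values were -0.32 ± 0.24 with TGF-β+chaetocin and -1.14 ± 0.11 with TGF-β. Ndc80 over Nuf2 gave 1.13 ± 0.28 with TGF-β+chaetocin and 0.35 ± 0.20 with TGF-β, and Spc24 over Spc25 gave -3.15 ± 0.18 with TGF-β+chaetocin and -2.15 ± 0.40 with TGF-β. Both pairs are subunits of the NDC80 complex. Ect2 over Racgap1 stood at 0.71 ± 0.04 with TGF-β+chaetocin and 0.04 ± 0.05 with TGF-β. The balance of the B-type cyclins, Ccnb1 over Ccnb2, was 0.86 ± 0.03 with TGF-β+chaetocin and 1.43 ± 0.11 with TGF-β.

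The groups overlapped in 7 pairs. Incenp over Aurkb differed most, by -0.46 ± 0.17 (SE) on the log2 scale (exact permutation test p = 0.0571, adjusted p = 0.0914), followed by Cdc25b over Cdc25c at 0.33 ± 0.26. Bub1b over Mad2l1 differed by 0.02 ± 0.08 (SE) on the log2 scale and Espl1 over Pttg1 by 0.11 ± 0.15. The paralogous kinases Aurka over Aurkb differed by 0.14 ± 0.19, Cdc20 over Ube2c by -0.19 ± 0.13 and Cenpe over Cenpf by -0.14 ± 0.10. A p above the threshold does not show that these ratios were alike.

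**Figure D5:**
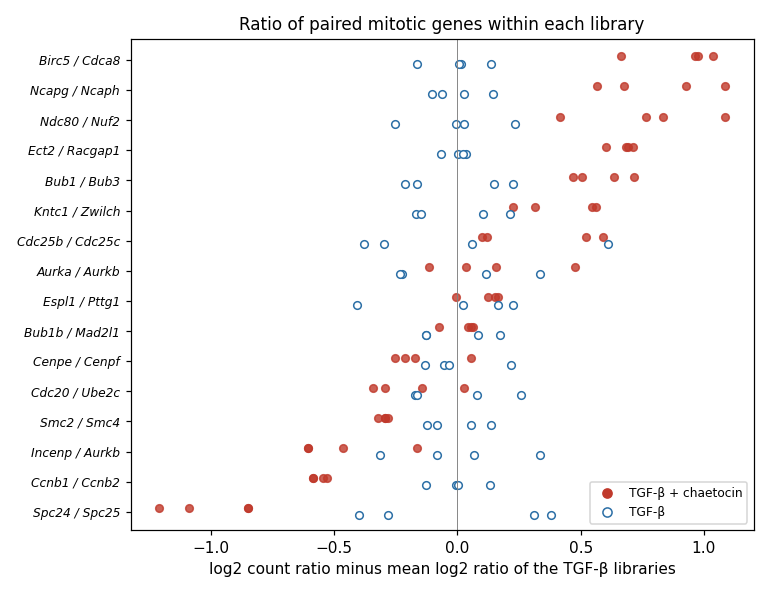
log2 ratio of the counts of 2 mitotic genes in each library, minus the mean of the 4 TGF-β libraries, for 16 pairs; filled points are TGF-β+chaetocin and open points TGF-β. Filled and open points are apart in 9 pairs, with Birc5 / Cdca8 at the top and Spc24 / Spc25 at the bottom.

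Other genes of the same pathways went both ways. Of 152 further mitotic genes in 9 lists, all tested, 83 were higher (edgeR, against 42.0% of all genes) and 49 lower (against 38.8%), with a median of 0.23. Total-count scaling gave 91 and 36, and limma on FPKM 88 and 26. Among 17 subunits and regulators of the anaphase-promoting complex, 6 were higher and 10 lower, or 6 and 7 under total-count scaling and 6 and 5 with limma on FPKM. The scaffold subunit gene Anapc5 averaged 101 ± 6.55 CPM with TGF-β+chaetocin and 151 ± 3.27 CPM with TGF-β, and Cdc16 46.6 ± 1.84 CPM with TGF-β+chaetocin and 76 ± 1.58 CPM with TGF-β (SD, n = 4 each). The small RING subunit gene Anapc11 rose to 31.3 ± 1.76 CPM with TGF-β+chaetocin, against 13.2 ± 0.789 CPM with TGF-β. Of 13 cohesin genes 2 were higher and 9 lower, or 4 and 7 under total-count scaling and 4 and 5 with limma on FPKM. Pds5a and Nipbl, a regulator and the loader of cohesin, had log2 fold changes of -0.44 and -0.35. Esco2, the acetyltransferase that locks cohesin in S phase, rose by 2.21, and Cdca5, which encodes sororin, by 0.67.

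Of 19 inner kinetochore and CENP-A loading genes 12 were higher and 2 lower, with Cenpn at 1.29 and Cenpt at -0.65. Of 15 further outer kinetochore genes 10 were higher and 2 lower. Spdl1, the dynein adaptor that works with Kntc1 and Zwilch, rose by 1.44, and Zwint by 0.57. Of 3 further condensin genes, Ncapg2 rose by 0.75, while Ncaph2 had a log2 fold change of -0.15 that was not called under total-count scaling. Centrosome and spindle assembly genes were higher in 20 of 34 cases and lower in 8, or 21 and 5 under total-count scaling. Tacc3, an Aurora A substrate of the spindle, averaged 41.3 ± 0.999 CPM with TGF-β+chaetocin and 13.6 ± 0.552 CPM with TGF-β (SD, n = 4 each). Of 18 further cytokinesis genes 11 were higher and 6 lower, with Kif23, the motor partner of Racgap1, at 1.04 and Septin11 at -0.77. All of these counts stand against 42.0% higher and 38.8% lower over all tested genes.

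Of 18 further entry and exit regulators, 11 were higher and 6 lower, or 12 and 3 under total-count scaling. Ccnf, the F-box cyclin, had 45.2, 49.7, 46.6 and 48 CPM in the TGF-β+chaetocin libraries, against 7.90, 7.58, 9.04 and 7.44 CPM in the TGF-β libraries (log2 fold change 2.56 ± 0.063 (SE), adjusted p = 1.9e-23). Cdc14a, a phosphatase, had 50.4, 46.5, 46.4 and 52.7 CPM with TGF-β+chaetocin, against 8.68, 10.1, 7.46 and 8.71 CPM with TGF-β (log2 fold change 2.49 ± 0.068 (SE), adjusted p = 2.2e-22). Both exceed the rise of every one of the 47 members. Wee1, the kinase that restrains CDK1, fell to 14 ± 1.33 CPM with TGF-β+chaetocin, against 23.8 ± 0.611 CPM with TGF-β, and Cdc25a, a phosphatase that acts on CDK2 and CDK1, fell to 17.5 ± 1.09 CPM with TGF-β+chaetocin, against 25.3 ± 1.20 CPM with TGF-β (SD, n = 4 each). Of 15 genes for the DREAM and MuvB complexes and NF-Y, 10 were higher and 5 lower. For both of these lists the shares over all tested genes were 42.0% higher and 38.8% lower. Tfdp1 and Nfyc rose by 0.32 and 0.61, and the pocket protein gene Rbl2 and the dimerization partner gene Tfdp2 had log2 fold changes of -0.74 and -0.80. Counts are less certain where exons overlap another gene, as they do for Rbl2 (1585 bases on the opposite strand), Pds5a, Ncaph2, Cenpt, Ccnf, Cdc14a and Tacc3.

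In the promoters of these 152 genes, both CHR letters and CCAAT stood in 24 of 79 windows (30.4%) of the genes called higher, in 6 of 55 windows (10.9%) of the genes called lower and in 2 of 25 windows (8.0%) of the rest. All promoters hold both in 10.7% of windows. This is a description of lists split by their own values and carries no test. Within the 47 members the median log2 fold change was 0.90 for 29 genes with CHR letters and 0.80 for 9 without them, with ranges of 0.23 to 1.85 and 0.33 to 1.38. For CCAAT it was 0.90 for 30 genes with it and 0.94 for 8 without it, with ranges of 0.23 to 1.85 and 0.33 to 1.54.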

How the data were processed

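Gene-level read counts and FPKM values of 8 libraries were used. Per the labels' protocols RNA was column-purified before library preparation with a SMARTER kit. Per the submitters' processing notes the build was GRCm38 (mm10). For the aligner, the counter, the annotation and the use of strand the sources used here name nothing. Strand matters for 11 members whose exons overlap a gene on the opposite strand, and 3 more overlap one on the same strand (GENCODE M21). Per the file headers the authors deposited raw counts, FPKM, a log2 ratio of mean FPKM, and p-values with FDR from a test the table does not name. Columns of other samples numbered 0.

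Counts were filtered with filterByExpr, scaled by TMM and tested in edgeR 4.0.16 (R 4.3.3) by quasi-likelihood, with Benjamini-Hochberg adjustment over 14608 genes. All adjusted p-values of single genes come from this fit. The SE is the log2 fold change divided by the square root of F. The common biological coefficient of variation was 2.94%. Tested on simulated data with 200 changed genes, raised and lowered in equal number, the method recovered most of the changes put in. Far more genes were called in the real data, with more large rises than large falls, a setting the simulation did not cover. Replicates of a group differed by more than sampling noise (mean chi-square per gene 2.04 to 2.61). Pair ratios used counts plus 0.5.

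The members, lists, pairs and tests were chosen with earlier results of these data known. All members could be named, and from each further list the 2 called genes with the smallest p in each direction. Alternatives were DESeq2 1.42.0 and its size factors, total-count scaling, other filters, limma 3.58.1 (voom and log2 FPKM), a replicate block, fold limits, and each library left out. Samples were grouped by the treatment label.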

Additional observations from a re-analysis of the deposited data

Results flagged for a closer look

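In each group of 4 libraries, a value was singled out when its gap to the nearest other value exceeded the 95% limit of Dixon's test. Of 130 groups of 4 values examined, 8 were singled out, where chance gives about 1 in 20. Anln was low in replicate 2 with TGF-β+chaetocin, at 60.2 CPM against 65.2 to 65.8 CPM in the other 3, and high in replicate 4 with TGF-β, at 31.8 CPM against 29.2 to 29.4 CPM. Prc1 was low in replicate 4 with TGF-β+chaetocin, at 35.3 CPM against 39.56 to 39.95 CPM. Cdca8 was high in replicate 3 with TGF-β+chaetocin, at 13.4 CPM against 10.61 to 10.97 CPM. The log2 ratio of Bub1b over Mad2l1 was low in the same library, at -0.21 against -0.09 to -0.07. Aurka was high in replicate 3 with TGF-β, at 8.84 CPM against 6.98 to 7.22 CPM, and Smc2 in replicate 2 with TGF-β, at 37.5 CPM against 32.6 to 33.4 CPM. The total count of replicate 1 with TGF-β+chaetocin was 22591935, against 14421225 to 15084876 in the other 3. Without that library the same number of members, 46, was called higher.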

How the results depend on the processing

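Under every fit tried without a fold limit, 46 members were called higher and 0 lower, and Spc24 was the member not called each time. These fits were DESeq2, its size factors in edgeR, scaling by total count, a filter of 1 CPM in 4 libraries, unfiltered counts, limma-voom, limma on FPKM with a pseudocount of 1 or 0.1 or no filter, a replicate block and each library left out. The members' median log2 fold change of 0.85 became 0.963 with total-count scaling, 0.812 with no filter and 0.962 with limma on log2(FPKM + 0.1), and lay between 0.845 and 0.874 with a library left out. Limma on FPKM called 26, 26 and 25 of the other mitotic genes lower in place of 49, with a pseudocount of 1, of 0.1 and with no filter. Dsn1, an outer kinetochore gene, changed sign there, with log2 values of 0.006, 0.002 and 0.006 in place of -0.285. The gene length implied by its counts and FPKM had a ratio of 0.879, TGF-β+chaetocin over TGF-β. The part of this in the change of sign was not tested. A fold of at least 2 left 17 members, 22 higher and 0 lower other mitotic genes, and 2884 higher and 713 lower genes in all. Testing with glmTreat against a fold of 1.5 left 37 higher and 5 lower other mitotic genes and 3357 higher and 1492 lower genes in all. Replicate numbers gave little sign of pairing. Same-numbered libraries had correlations of 0.01 to 0.08, and 2 of 4 correlated best with their own number. With so few libraries this cannot show whether they were paired. With the replicate block 46 members and 83 other mitotic genes were higher and 48 lower. Of the 16 pair ratios 0 passed the threshold with 0.1 or 2 added to the counts or with FPKM. Since no pair can pass on its own with 4 against 4 libraries, this does not show that the ratios are stable. With a library left out only the differences of these ratios were taken, and no test is given there. The low counts of Spc24, 18 to 31 per library, give it an SE of 0.23. The CPM value of 3 counts in a library reflects counting error only.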

Other observations

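The gene length implied by counts and FPKM together differed between the groups for a few members. TGF-β+chaetocin over TGF-β, this ratio was 0.81 for Cenpf, 1.12 for Cenpa, 1.10 for Ect2 and 0.933 for Ncapd2, against 1.001 for Bub1 and Aurka. A fold change taken from FPKM therefore departs from one taken from counts for Cenpf, whose FPKM was 3.13 ± 1.21 with TGF-β+chaetocin and 1.11 ± 0.171 with TGF-β (SD, n = 4 each).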
